A study of Homo sapiens with 38 samples.

Results

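ZIC1, ZIC2, ZIC4 and ZIC5 were followed through capacitation, the passage of naive human pluripotent stem cells towards the state of the post-implantation epiblast. The members were taken by symbol from the count table, which holds 57133 genes. All 4 symbols have a row, and 3 of the 4 (ZIC1, ZIC2 and ZIC5) passed the filter on low counts with 16674 genes in all. Other genes of the family are not analysed here.

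The series holds 38 libraries of 3′ tag RNA sequencing from Shef6, a human embryonic stem cell line, and all of them come from naive cells that had been adapted to culture on serum coating without feeder cells. Naive cells (6 libraries) were kept in PXGL, which is N2B27 basal medium with the MEK inhibitor PD0325901, the tankyrase inhibitor XAV939, the PKC inhibitor Gö6983 and LIF, on serum coating or on Geltrex. They were moved to Geltrex in N2B27 alone (with a ROCK inhibitor on day 0) or in E8 and sampled at days 2, 3, 4, 6 and 8, or in mTeSR and sampled at days 4, 6 and 8. E8 and mTeSR are commercial media that supply FGF and TGFβ-family signals. These samples and 4 of the naive libraries (30 libraries) carry no experiment tag in their labels and are called Ex1 here. A second experiment, labelled Ex2 (8 libraries), holds naive cells on Geltrex and day 4 cells in N2B27, in N2B27 with XAV939 added (XAV), or with Activin A and FGF2 beside XAV939 in N2B27 (FAX). The library names of all naive cells read PXGLY. The study added a ROCK inhibitor to naive medium after passaging, but whether the Y stands for it is not stated. The names of the naive Ex2 libraries also read day 4 where their titles read day 0, and the titles were followed here. Each combination of medium, day, coating and experiment has 2 libraries. All come from 1 cell line, and p-values here measure the spread between parallel libraries, which may be technical.

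ZIC genes encode zinc finger transcription factors whose fingers resemble those of the GLI factors, the effectors of Hedgehog signalling. They are best known from the early nervous system. Loss of ZIC2 function causes holoprosencephaly, loss of ZIC1 together with ZIC4 is linked to cerebellar malformation, and ZIC5 acts in neural crest formation in animal models. In pluripotent cells ZIC2 is low in the naive state and high in the primed state. The study itself used ZIC2 as a primed marker, so its rise is not independent evidence of capacitation.

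The genes lie in head-to-head pairs on 2 chromosomes (GRCh38, GENCODE gene bounds). ZIC2 (ENSG00000043355, chromosome 13, 99981784 to 99986765, plus strand) and ZIC5 (ENSG00000139800, chromosome 13, 99962964 to 99971767, minus strand) point away from each other with 10016 bases between them. ZIC1 (ENSG00000152977, chromosome 3, 147393422 to 147510293, plus strand) and ZIC4 (ENSG00000174963, chromosome 3, 147386046 to 147406809, minus strand) overlap by 13388 bases of their full gene bounds on opposite strands. Their main transcripts do not overlap and start 2822 bases apart. Whether the counting used strand is not given in the sources used here, so reads of ZIC1 and ZIC4 in the shared stretch may not have been separable. The 3′ ends of both main transcripts (147416719 for ZIC1 and 147386046 for ZIC4) lie outside that stretch. One non-coding gene lies between ZIC5 and ZIC2 (ENSG00000288060) and another inside ZIC4 (ZIC4-AS1), and neither passed the filter.

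Promoter sequences are shown for the 3 genes that passed the filter, because ZIC2 and ZIC5 leave the naive state together while ZIC1 follows another course. Each runs from 250 bases before to 50 bases after the RefSeq start (GRCh38.p14), 5′ to 3′ on the strand of the gene, with CpG dinucleotides in capitals. The ZIC2 window is chr13:99981534-99981833, the ZIC5 window chr13:99971718-99972017 and the ZIC1 window chr3:147409115-147409414.
ZIC2: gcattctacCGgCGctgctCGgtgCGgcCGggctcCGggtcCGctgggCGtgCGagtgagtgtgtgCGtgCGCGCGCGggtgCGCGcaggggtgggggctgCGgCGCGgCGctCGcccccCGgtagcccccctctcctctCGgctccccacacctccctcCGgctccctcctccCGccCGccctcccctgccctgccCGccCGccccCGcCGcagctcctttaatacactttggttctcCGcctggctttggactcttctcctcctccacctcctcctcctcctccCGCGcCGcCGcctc
ZIC5: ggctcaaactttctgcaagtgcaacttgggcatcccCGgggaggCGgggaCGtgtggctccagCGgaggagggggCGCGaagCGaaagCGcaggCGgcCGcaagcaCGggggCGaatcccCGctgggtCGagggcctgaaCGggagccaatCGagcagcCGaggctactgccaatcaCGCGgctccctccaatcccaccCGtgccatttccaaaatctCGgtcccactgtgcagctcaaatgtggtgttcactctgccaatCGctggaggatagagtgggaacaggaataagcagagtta
ZIC1: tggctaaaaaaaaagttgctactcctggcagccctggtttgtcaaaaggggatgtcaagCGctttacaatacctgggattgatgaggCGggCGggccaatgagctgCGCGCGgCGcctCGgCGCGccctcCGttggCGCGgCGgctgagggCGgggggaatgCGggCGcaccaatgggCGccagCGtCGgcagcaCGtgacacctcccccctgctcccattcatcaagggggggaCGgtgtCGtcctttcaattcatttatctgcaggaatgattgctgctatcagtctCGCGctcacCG
The windows hold 35 (ZIC2), 22 (ZIC5) and 26 (ZIC1) CpG dinucleotides, against a median of 14 over 35116 RefSeq promoters of the same length, and 85.9%, 62.3% and 69.9% of those promoters hold fewer. The ZIC4 window holds 10. Both strands were searched for 4 letter strings, with no overlap among the strings. These were a ZIC-type site (CAGCAGG, found in 10.5% of all promoters), a GLI consensus (GACCACCCA, 0.236%), a TCF/LEF site (CTTTGAT, 2.62%) and the octamer (ATGCAAAT, 1.77%). None of the 4 member windows holds any of these strings.

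Library totals ran from 3038046 to 5612354 counts, with a median of 4427277. Levels are given as CPM, the count of a gene per 1e+06 counts of its TMM-scaled library. A gene was called in a comparison when its Benjamini-Hochberg adjusted p in the edgeR quasi-likelihood test was under 0.05 and its log2 fold change passed 1 in size. A level of 3 counts or fewer was taken as the floor, which is 0.520 to 1.06 CPM depending on the library. Of 10 naive pluripotency markers, 9 were called lower than naive at day 8 in N2B27, 8 in E8 and 9 in mTeSR. Of the primed or formative markers, 6 of 6 tested were called higher in each medium. Over all genes, 23.9% (N2B27), 27.5% (E8) and 25.1% (mTeSR) were called in either direction in these comparisons. SPIC, a transcription factor of naive cells, was at 45.3 ± 13.3 CPM (SD, n = 6) in naive cells and at 0 CPM in both N2B27 libraries at day 8. The primed marker FGF5 reached at most 2 counts in any library.

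ZIC2 was close to absent from naive cells and rose in every medium and at every day sampled. In the 6 naive libraries it had 4, 4, 4, 4, 3 and 2 counts, or 0.826 ± 0.165 CPM (SD, n = 6). In N2B27 the libraries read 29.8 and 21.1 CPM at day 2, 50.2 and 54.9 at day 3, 65.0 and 71.3 at day 4 in Ex1, 147 and 129 at day 6, and 154 and 139.6 at day 8. In E8 they read 18.04 and 13.8 CPM at day 2, 19.4 and 29.3 at day 3, 29.5 and 29.2 at day 4, 65.2 and 53.0 at day 6, and 74.6 and 71.3 at day 8. Every differentiated library therefore lay above all 6 naive libraries from the first day sampled. In mTeSR the libraries read 31.5 and 35.2 CPM at day 4, 64.8 and 71.8 at day 6, and 103 and 123 at day 8.

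All 15 comparisons of ZIC2 with naive cells were called higher. The log2 fold changes ran from 4.23 (SE 0.257, adjusted p 3.97e-15) in E8 at day 2 to 7.44 (SE 0.176, adjusted p 7.67e-27) in N2B27 at day 8. Naive cells were close to the floor, with 2 to 4 counts per library. The size of these folds is therefore rough, and their SEs fall below counting error alone. As background, the share of the 16674 genes called against naive in N2B27 was 16.2%, 15.6%, 18.4%, 23.1% and 23.9% at days 2, 3, 4, 6 and 8. In E8 it was 24.6%, 17.8%, 20.8%, 23.3% and 27.5% at the same days. In mTeSR it was 19.8%, 22.5% and 25.1% at days 4, 6 and 8, and at day 4 of Ex2 it was 17.0% in XAV and 17.1% in FAX. These comparisons share the naive libraries and are not independent of each other.

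**Figure D1:**
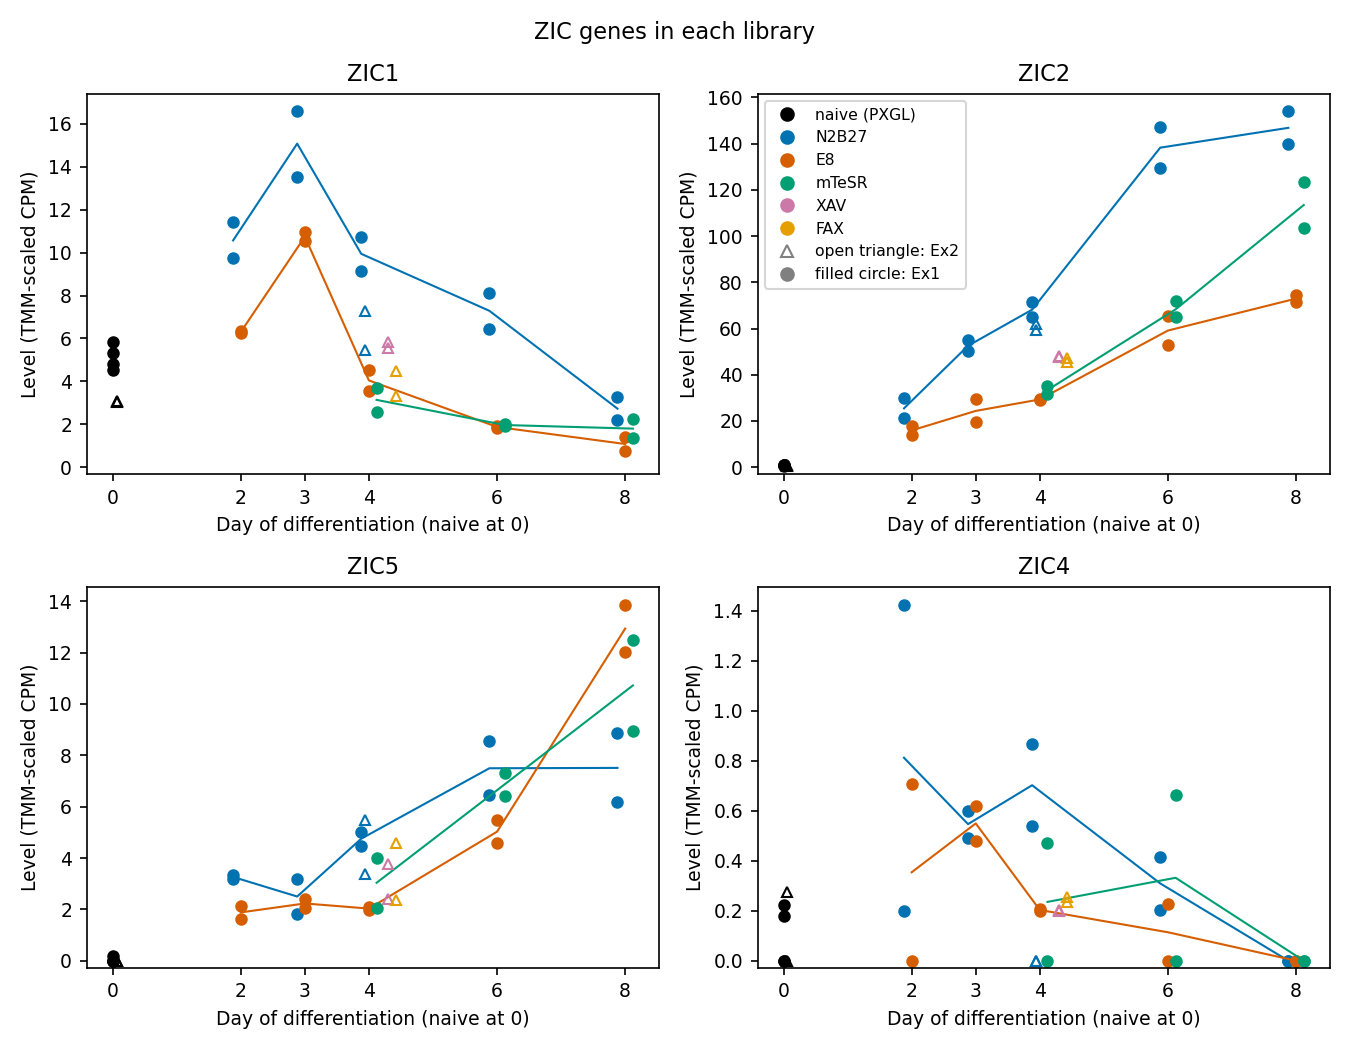
Level of ZIC1, ZIC2, ZIC5 and ZIC4 (TMM-scaled CPM, linear axes that differ between panels) in each of the 38 libraries against day of differentiation, coloured by medium. Filled circles are Ex1, open triangles Ex2, and lines join the means of 2 libraries in Ex1. ZIC2 climbs to 147 CPM in N2B27, ZIC5 to 12.9 CPM in E8, and ZIC1 peaks at 15.1 CPM in N2B27 at day 3. ZIC4 stays at 6 counts or fewer in every library.

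The rise of ZIC2 was spread over the course. At day 2 its mean had reached 17.3% of its highest mean (N2B27, day 8) in N2B27 and 10.8% in E8. Between consecutive days it was called higher from day 2 to 3 in N2B27 (log2 1.04, SE 0.162, adjusted p 7.24e-05), from day 4 to 6 in N2B27 (1.02, SE 0.139, adjusted p 5.60e-06), from day 4 to 6 in E8 (1.01, SE 0.158, adjusted p 6.08e-05) and from day 4 to 6 in mTeSR (1.03, SE 0.156, adjusted p 3.05e-05). From day 6 to 8 the change was 0.09 in N2B27 (95% interval -0.19 to 0.36) and 0.73 in mTeSR (adjusted p 0.00240), the latter under the fold threshold. The share of all genes called was 3.18%, 1.09%, 3.89% and 1.43% for the 4 steps in N2B27. In E8 it was 7.56%, 0.810%, 2.51% and 0.804%, and in mTeSR 2.91% and 0.978%.

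The 4 called steps of ZIC2 lay just over the fold threshold, and single libraries took them under it with adjusted p still below 0.05. Leaving out any 1 of the 38 libraries, also of groups outside the step, left 1 to 3 of the 4 called. The step from day 2 to 3 in N2B27 was 0.81 without day 2 replicate 2 and 0.97 without day 3 replicate 2. In a fit of only the libraries compared it was 1.03 (adjusted p 0.0746). The step from day 4 to 6 in N2B27 was 0.91 without replicate 1 of either day. The step from day 4 to 6 in E8 was 0.99 and 0.98 without day 4 replicates 1 and 2, and 0.82 without day 6 replicate 1. The step in mTeSR was 0.93 without day 4 replicate 1 and 0.94 without day 6 replicate 2.

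ZIC5, the divergent partner of ZIC2, went from the floor in naive cells to a low but countable level. The naive libraries held 0, 0, 0, 1, 0 and 0 counts. In N2B27 the libraries read 3.20 and 3.32 CPM at day 2, 3.20 and 1.80 at day 3, 5.03 and 4.48 at day 4 in Ex1, 8.54 and 6.45 at day 6, and 6.17 and 8.85 at day 8. In E8 they read 2.12 and 1.64 CPM at day 2, 2.40 and 2.06 at day 3, 2.09 and 1.97 at day 4, 4.59 and 5.46 at day 6, and 13.9 and 12.01 at day 8. All of these lay above every naive library, and the 2 highest readings of any library in E8 or N2B27 were those of E8 at day 8. In mTeSR the libraries read 4.0 and 2.07 CPM at day 4, 6.41 and 7.33 at day 6, and 12.5 and 8.95 at day 8.

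All 15 comparisons of ZIC5 with naive cells were called higher. With naive cells at the floor, a fold is a lower bound, taken against the highest naive floor of a single library (1.02 CPM). On this bound the day 2 level of ZIC5 in N2B27 was at least 3.18-fold higher than in naive cells, and that in E8 at least 1.84-fold. By day 8 the bound had reached at least 7.33-fold for N2B27, at least 12.6-fold for E8 and at least 10.5-fold for mTeSR. In fits of only the libraries compared, ZIC5 passed the filter on low counts in 10 of the 15 comparisons and was called in all 10. With naive cells at the floor it could pass only through a high differentiated group, so these calls add no support.

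Between consecutive days, 3 steps of ZIC5 were called. It was called higher from day 4 to 6 in E8 (log2 1.30, SE 0.406, adjusted p 0.0481), from day 6 to 8 in E8 (1.36, SE 0.318, adjusted p 0.0162) and from day 4 to 6 in mTeSR (1.17, SE 0.369, adjusted p 0.0422). In N2B27 the change was 0.65 from day 4 to 6 (95% interval -0.009 to 1.31) and 0.02 from day 6 to 8 (-0.62 to 0.65). The counts behind these values are small, between 5 and 74 in differentiated libraries, and DESeq2 called none of the 3 steps (adjusted p 0.142, 0.0676 and 0.128). The step from day 4 to 6 in E8 also missed the threshold with RLE factors (0.0505) and plain library totals (0.0506). Leaving out any of the 4 libraries behind the step from day 4 to 6 in E8 ended that call (adjusted p 0.152 to 0.271), and the same held in mTeSR (0.0566 to 0.333). The step from day 6 to 8 in E8 was lost without day 6 replicate 1 (adjusted p 0.194), day 6 replicate 2 (0.139) or day 8 replicate 1 (0.236), and with only the libraries compared (0.105).

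ZIC1 followed a different course, with a transient rise and then a fall. It was already detected in naive cells, at 5.31 and 4.80 CPM on serum and 5.84 and 4.51 on Geltrex in Ex1, and at 3.07 and 3.04 on Geltrex in Ex2. In N2B27 it read 11.4 and 9.73 CPM at day 2, 13.5 and 16.6 at day 3, 10.7 and 9.14 at day 4 in Ex1, 8.13 and 6.45 at day 6, and 2.20 and 3.25 at day 8. In E8 it read 6.37 and 6.24 CPM at day 2, 10.5 and 10.9 at day 3, 3.55 and 4.54 at day 4, 1.93 and 1.82 at day 6, and 0.749 and 1.41 at day 8. Both media had their highest mean at day 3 and their lowest at day 8. In mTeSR, not sampled before day 4, it read 2.59 and 3.68 CPM at day 4, 1.99 and 1.94 at day 6, and 1.36 and 2.24 at day 8.

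Against naive cells ZIC1 was called in 7 of the 15 comparisons, 3 higher and 4 lower, and its share of calls has to be read against the background shares given above. It was higher in N2B27 at day 2 (log2 1.23, SE 0.241, adjusted p 0.000162) and day 3 (1.74, SE 0.229, adjusted p 2.36e-07) and in E8 at day 3 (1.25, SE 0.241, adjusted p 0.000103). It was lower in E8 at day 6 (-1.25, SE 0.342, adjusted p 0.00311) and day 8 (-2.08, SE 0.377, adjusted p 2.29e-05), and in mTeSR at day 6 (-1.19, SE 0.332, adjusted p 0.00398) and day 8 (-1.32, SE 0.361, adjusted p 0.00305). These 4 groups held 10 to 18 counts each. Their SEs fall below counting error alone and are too narrow. In N2B27 at day 8 the value was -0.70 (95% interval -1.32 to -0.09, adjusted p 0.0565). The call in mTeSR at day 8 was lost without replicate 1 (log2 fold change -0.995).

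The naive level of ZIC1 differed between the experiments without a call (log2 -0.74 for Ex2 minus Ex1 on Geltrex, adjusted p 0.165), and this bears on the day 4 values. Within Ex1, ZIC1 in N2B27 at day 4 was above naive cells by 0.96 on the log2 scale (SE 0.209, adjusted p 0.000374). Within Ex2 the difference was 1.05 (SE 0.323, adjusted p 0.0123). With the experiments pooled it was 0.87 (adjusted p 0.000656), under the fold threshold, and it became 1.04 without Ex2 replicate 2 of N2B27. In FAX the pooled difference was -0.20 and that within Ex2 was 0.36 (SE 0.349, adjusted p 0.506), so its sign depends on the naive libraries used. In XAV the pooled difference was 0.34 (adjusted p 0.354), and within Ex2 it was 0.89 (SE 0.320, adjusted p 0.0339), under the fold threshold.

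**Figure D2:**
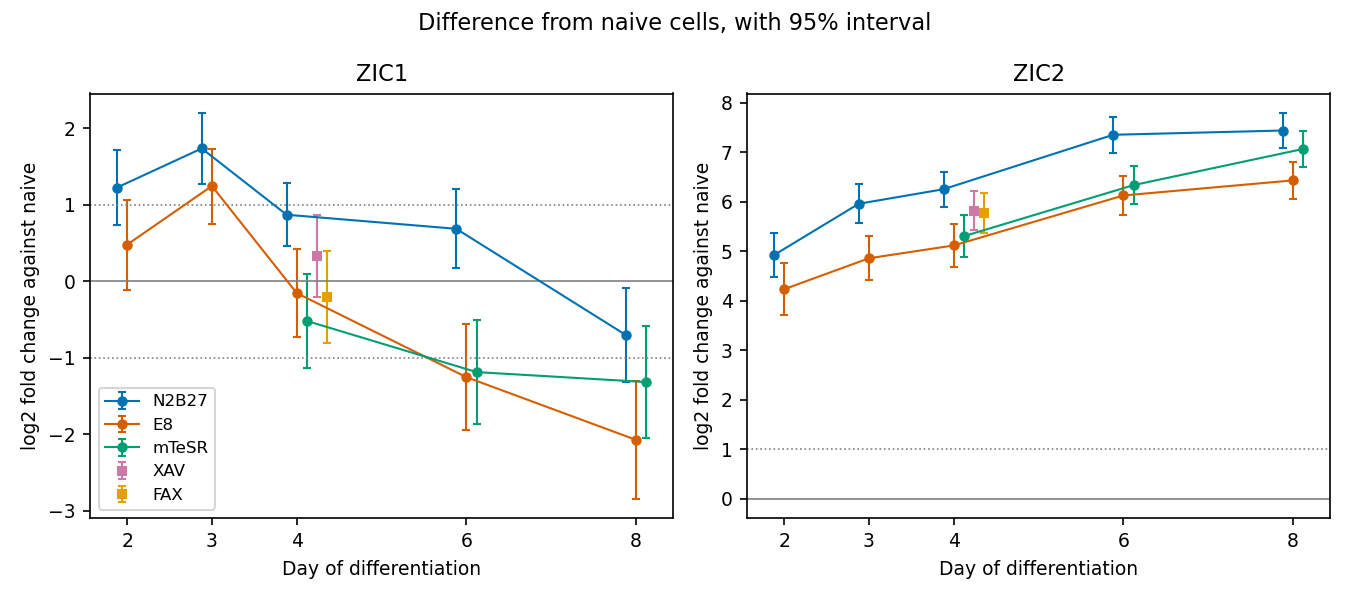
Fitted log2 fold change of ZIC1 and ZIC2 against naive cells (6 libraries of both experiments) by day and medium, with 95% intervals as bars. Dotted lines mark a log2 fold change of 1 in size. Intervals are too narrow where counts are low, as in naive cells for ZIC2. ZIC1 is above the line at days 2 and 3 in N2B27 and at day 3 in E8, and below the lower line at days 6 and 8 in E8 and mTeSR, while all ZIC2 values lie between 4.23 and 7.44.

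Between consecutive days, 1 step of ZIC1 was called in each of N2B27 and E8, both lower. It was called lower from day 3 to 4 in E8 (log2 -1.40, SE 0.261, adjusted p 0.00178) and from day 6 to 8 in N2B27 (-1.39, SE 0.288, adjusted p 0.00324). The call in E8 was lost without day 4 replicate 1 (adjusted p 0.0642) and with only the libraries compared (0.280), and that in N2B27 without replicate 1 of day 6 (0.0673) or of day 8 (0.0986) and with DESeq2 (0.0525). No other step of ZIC1 was called. The difference from day 4 to 6 in E8 was -1.10 (95% interval -1.81 to -0.39, adjusted p 0.0750).

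ZIC4, the partner of ZIC1, stayed at or near the floor. It had at most 6 counts in any library, was not tested in the main fit, and held 3 counts over the 6 naive libraries together. Its highest mean was in N2B27 at day 2, where the libraries had 1 and 6 counts. At day 3 it had 2 and 3 counts in each of N2B27 and E8. At day 8 it had 0 counts in both libraries of N2B27, E8 and mTeSR, which allows up to 0.542 to 0.840 CPM per library. In a fit without a filter on low counts, no comparison of ZIC4 against naive cells, between days, between media or within Ex2 was called.

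Onset was read as the first sampled day with both libraries above all naive libraries, and as the first day called. Both libraries of ZIC2 and of ZIC5 were above all naive libraries at day 2 in N2B27 and E8, and both genes were called there at day 2. ZIC1 was called higher at day 2 in N2B27 and at day 3 in E8, although both E8 libraries were already above all naive libraries at day 2. In mTeSR, ZIC2 and ZIC5 were called at day 4, the first day sampled, and ZIC1 was at no day called higher.

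In order of mean level, ZIC1 was highest in N2B27 at day 3 (15.1 ± 2.18 CPM, SD, n = 2), apart from all other groups, then in E8 at day 3 and N2B27 at day 2. It was lowest in E8 at day 8 (1.08 ± 0.469). Of 15 neighbouring pairs in this order, 10 overlapped. ZIC2 was highest in N2B27 at days 8 (147 ± 10.2) and 6 (138 ± 12.6), which overlapped, followed by mTeSR at day 8 (113 ± 14.1), and 7 of its 15 neighbouring pairs overlapped. ZIC5 was highest in E8 at day 8 (12.9 ± 1.31) and mTeSR at day 8 (10.7 ± 2.50), which overlapped, and 12 of its 15 neighbouring pairs did. Most groups have 2 libraries, so lack of overlap is weak evidence of a difference. How often other genes overlapped was not computed.

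The media were compared at the same day within Ex1, in 11 comparisons per gene. ZIC2 was lower in E8 than in N2B27 at all 5 days, and the difference was called from day 3 on. The log2 difference was -1.10 ± 0.163 (SE) with an adjusted p of 6.60e-05 at day 3, and -1.22 ± 0.154 with 2.86e-06 at day 4. It was -1.23 ± 0.143 with 2.79e-07 at day 6, and -1.01 ± 0.139 with 2.86e-06 at day 8. At day 2 it was -0.69 (adjusted p 0.0193), under the fold threshold. In mTeSR it was called lower than in N2B27 at days 4 (-1.03, SE 0.154, adjusted p 7.08e-05) and 6 (-1.02, SE 0.141, adjusted p 1.22e-05), but at day 8 the difference was -0.37 (95% interval -0.65 to -0.09, adjusted p 0.0791). Between mTeSR and E8 ZIC2 differed by 0.19 at day 4, 0.21 at day 6 and 0.64 at day 8 (SE 0.142, adjusted p 0.00258), none of them called.

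Several of these differences lay close to the fold threshold. Without E8 replicate 1 the difference at day 3 was -0.84. At day 8 it was -0.94 without N2B27 replicate 1 and -0.96 without E8 replicate 2. For mTeSR at day 4 it was -0.96 without N2B27 replicate 2 and -0.94 without mTeSR replicate 1, and at day 6 it was -0.92 without N2B27 replicate 1 and -0.93 without mTeSR replicate 1. The adjusted p stayed below 0.05 in each of these. In a fit of only the libraries compared, the difference between E8 and N2B27 at day 3 was -1.10 and lost its call (adjusted p 0.235).

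ZIC1 was also lower in E8 than in N2B27 at all 5 days, with calls from day 4 on. The log2 difference was -1.29 ± 0.258 (SE) at day 4 (adjusted p 0.00142), -1.94 ± 0.321 at day 6 (6.50e-05) and -1.38 ± 0.408 at day 8 (0.0297). In mTeSR it was called lower than in N2B27 at days 4 (-1.65, SE 0.276, adjusted p 0.000289) and 6 (-1.87, SE 0.313, adjusted p 0.000192). At day 8 both mTeSR and N2B27 were low and the difference was -0.62 (95% interval -1.41 to 0.18). At these counts the SEs and the interval of ZIC1 fall below counting error alone and are too narrow. The call at day 4 in E8 was lost without E8 replicate 1 (adjusted p 0.0561), and that at day 8 without N2B27 replicate 2 (0.293) or E8 replicate 1 (0.331). The difference at day 8 was also not called with DESeq2 (adjusted p 0.106), without a filter on low counts (0.126) or with only the libraries compared (0.134).

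ZIC5 was called in none of the 11 comparisons between media. In E8 it lay below N2B27 at day 4 (log2 -1.22, SE 0.394, adjusted p 0.0531) and above it at day 8 (0.77, SE 0.294, adjusted p 0.0638). At day 4 the libraries did not overlap, with 2.09 and 1.97 CPM in E8 against 5.03 and 4.48 in N2B27. At day 8 they did not overlap in the opposite direction, with 13.9 and 12.01 against 6.17 and 8.85. With 2 libraries on each side, lack of overlap often arises by chance, and its share over all genes was not computed. The share of all genes called between E8 and N2B27 was 4.55%, 1.68%, 2.49%, 5.28% and 7.29% at days 2, 3, 4, 6 and 8. Between mTeSR and N2B27 it was 1.58%, 2.62% and 3.80% at days 4, 6 and 8, and between mTeSR and E8 it was 0.0840%, 1.10% and 5.31%.

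**Figure D3:**
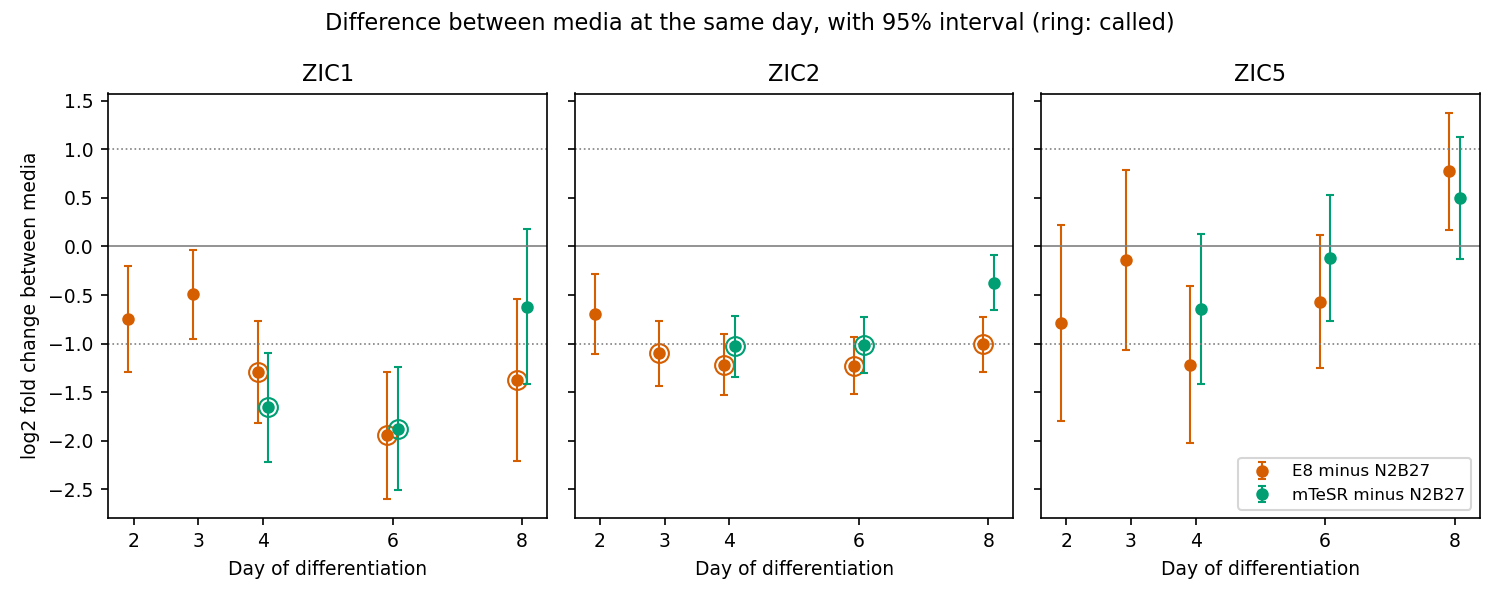
Difference of E8 (orange) and mTeSR (green) from N2B27 at the same day, as fitted log2 fold change with 95% intervals, for ZIC1, ZIC2 and ZIC5. Rings mark called differences and dotted lines a log2 fold change of 1 in size. Intervals of ZIC1 are too narrow where its counts are low. ZIC1 and ZIC2 lie below 0 at every day, and ZIC5 moves from -1.22 at day 4 to 0.77 at day 8 in E8.

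Whether the difference between media changed over the days was tested for each gene in 1 interaction test. For E8 against N2B27 over days 2 to 8, ZIC5 passed (adjusted p 0.0361), while ZIC1 (0.0692) and ZIC2 (0.466) did not. As background, 11% of all genes passed this test. For mTeSR against N2B27 over days 4 to 8 the adjusted p was 0.538 for ZIC1, 0.0920 for ZIC2 and 0.448 for ZIC5, with 2.18% of all genes passing. For mTeSR against E8 it was 0.753, 0.514 and 0.678, with 0.918% passing. The result for ZIC5 was lost with DESeq2 (adjusted p 0.171), with only the libraries compared (0.0568), and without any of 11 single libraries of N2B27 or E8. These were replicate 1 of N2B27 at days 4 (0.0784), 6 (0.0575) and 8 (0.178), replicate 2 of N2B27 at days 4 (0.0569) and 8 (0.0524), and replicate 2 of E8 at day 2 (0.0575). The others were replicates 1 and 2 of E8 at days 4 (0.0702 and 0.0778) and 6 (0.0608 and 0.0550), and replicate 1 of E8 at day 8 (0.132).

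The pair on chromosome 13 was also read as the share of ZIC5 among the counts of ZIC2 and ZIC5 together, a measure chosen after their values were seen and given as a description. It compares tag counts within a library and is no ratio of transcript numbers. In N2B27 the share was 11.6% ± 2.75 (SD, n = 2) at day 2 and 4.91% ± 1.49 at day 8. In E8 it was 10.6% ± 0.0792 at day 2, 6.48% ± 0.207 at day 4 and 15.04% ± 0.899 at day 8. At day 8 the E8 libraries (14.4% and 15.7%) were above those of mTeSR (10.8% and 6.77%), which were above those of N2B27 (3.85% and 5.96%). The level of ZIC5 itself overlapped between E8 and mTeSR at day 8 (log2 difference of mTeSR minus E8 -0.27, adjusted p 0.606), and its difference between E8 and N2B27 was not called.

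**Figure D4:**
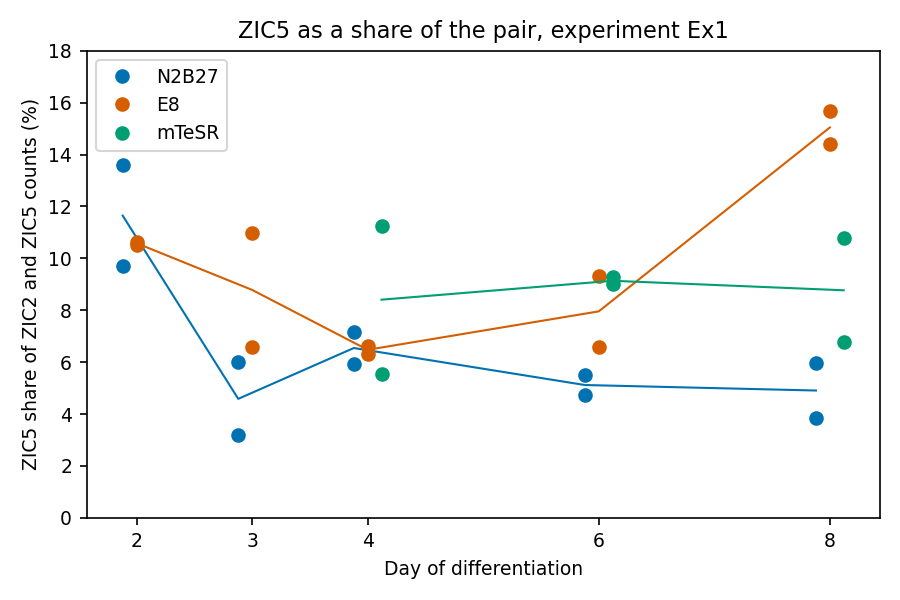
ZIC5 as a percentage of the ZIC2 and ZIC5 counts of a library in Ex1, by day and medium. Points are libraries and lines join means of 2. E8 at day 8 stands at 14.4% and 15.7%, above all other differentiated libraries plotted, and N2B27 at day 8 at 3.85% and 5.96%.

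In Ex2 the additions to N2B27 were compared at day 4. ZIC2 read 62.0 and 59.2 CPM in N2B27, 47.5 and 48.2 in XAV, and 47.1 and 45.7 in FAX. Both supplemented media were below N2B27 without overlap, but neither difference was called, at log2 -0.34 for XAV (95% interval -0.65 to -0.03, adjusted p 0.447) and -0.39 for FAX (-0.70 to -0.07, adjusted p 0.386). The share of all genes without overlap was not computed, and with 2 libraries on each side it can be large by chance. ZIC1 read 7.30 and 5.47 CPM in N2B27, 5.84 and 5.58 in XAV, and 3.31 and 4.50 in FAX. Its difference from N2B27 was -0.16 in XAV (95% interval -0.70 to 0.39) and -0.69 in FAX (-1.30 to -0.09, adjusted p 0.482).

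ZIC5 overlapped between all 3 media of Ex2, at 3.39 and 5.47 CPM in N2B27, 2.41 and 3.78 in XAV, and 4.59 and 2.37 in FAX. Between FAX and XAV the log2 difference was -0.54 for ZIC1 (95% interval -1.13 to 0.05), -0.04 for ZIC2 (-0.36 to 0.27) and 0.15 for ZIC5 (-0.67 to 0.98). The 95% intervals reached past a log2 difference of 1 in size for FAX against N2B27 and FAX against XAV in ZIC1 and for both supplemented media against N2B27 in ZIC5, but in none of the comparisons of ZIC2. The share of all genes called was 0.570% for XAV against N2B27, 0.336% for FAX against N2B27 and 0.0120% for FAX against XAV.

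No member was called between the experiments or between coatings. ZIC2 in N2B27 at day 4 differed by -0.17 between Ex2 and Ex1 (95% interval -0.47 to 0.13), and ZIC1 by -0.64 (-1.15 to -0.14, adjusted p 0.155). Over all genes, 4.67% were called between the naive cells on Geltrex of the 2 experiments, 1.01% between their N2B27 cells at day 4 and 0.0480% between Geltrex and serum coating in naive cells of Ex1.

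Tested genes on either side of each pair were read to see what lay around the members. CLYBL, 53504 bases from ZIC5, differed from naive cells by 0.83 (adjusted p 0.0292) on the log2 scale in N2B27 at day 8, and PCCA, 102249 bases from ZIC2, by 0.48 (adjusted p 0.0636). In mTeSR PCCA differed by 0.76 (adjusted p 0.00350), under the fold threshold. At day 3 in N2B27 CLYBL was called lower than naive (-1.33, adjusted p 0.0131). Beyond ZIC1, GYG1 differed by -0.50 (adjusted p 0.0295) in N2B27 and HLTF by -0.56 (adjusted p 0.00886) in E8 at day 8, neither called. Beside ZIC4, PLSCR1 at 841189 bases differed by 0.27 in N2B27 (adjusted p 0.104). PLSCR4, at 1134866 bases, was called lower at day 8 in N2B27 (-2.17), E8 (-3.43) and mTeSR (-2.90).

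The GLI and GLIS genes encode the closest relatives of the ZIC zinc fingers. At day 8, 2 of the 4 tested were called higher than naive in N2B27, 4 in E8 and 3 in mTeSR, none lower, and the median log2 fold change of the 4 was 2.50, 2.24 and 2.59 against -0.03, 0.00 and -0.02 over all genes. The share of all genes called in either direction was 23.9%, 27.5% and 25.1% in the same comparisons. GLI2, a Hedgehog effector, went from 0.505 ± 0.291 CPM (SD, n = 6) in naive cells to day 8 levels of 32.3 ± 7.97 in N2B27 (n = 2), 45.3 ± 2.75 in E8 and 51.9 ± 11.2 in mTeSR. GLI1, itself a Hedgehog target, was called higher in E8 (log2 1.51, adjusted p 1.40e-09) and mTeSR (1.66, adjusted p 2.26e-10), and stood at 0.91 in N2B27. No GLI or GLIS gene was called between E8 or mTeSR and N2B27 at any day.

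Among 11 genes of the Hedgehog pathway, 9 were tested and at day 8 the number called higher than naive was 4 for N2B27, 3 for E8 and 4 for mTeSR. Over all genes 23.9%, 27.5% and 25.1% were called in these comparisons in either direction, and the median log2 fold change of the 9 genes was 0.655, 0.643 and 0.994. PTCH1, the receptor and a target of the pathway, rose from 8.86 ± 3.11 CPM (SD, n = 6) to 60.2 ± 4.48, 72.9 ± 6.13 and 79.1 ± 10.9 (n = 2 each), or by 2.73, 3.01 and 3.12 on the log2 scale. SMO, the signal transducer, was called higher in all 3 media (1.59, 2.21 and 1.83). SUFU, the inhibitor of the GLI factors, was called lower in E8 (-1.51, adjusted p 1.89e-05). Of the ligand genes, SHH and DHH had at most 5 and 3 counts in any library and were not tested. The ligand IHH was at 0.508 ± 0.314 CPM in naive cells and 3.80 ± 1.79 in N2B27 at day 8, where it was called higher (adjusted p 0.000271). It was at 0.235 ± 0.333 CPM in E8 and 1.10 ± 0.366 in mTeSR at day 8. Between E8 and N2B27, 2 of the 9 tested Hedgehog genes were lower in E8 at day 8 (IHH and SUFU) and 1 was higher at day 6, where 7.29% and 5.28% of all genes were called in either direction.

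RNA was taken from whole cultures, so a change in RNA per cell and a change in the share of cells of a type cannot be told apart. Markers of other cell types differed between media from the first days on. Of 3 tested mesoderm genes, relative to N2B27 1 was called lower in E8 at day 2, 2 were at day 3 and 3 at days 4 and 6. In mTeSR 3 were called lower at day 4, 1 at day 6 and 0 at day 8. Of 4 tested endoderm genes, 1 was higher in E8 than in N2B27 at day 2, 1 was lower at day 3, none was called at day 4 and 3 were lower at day 6. In mTeSR none of the 4 was called at day 4, 3 were lower at day 6 and 1 at day 8. Over all genes the share called in either direction from day 2 to 8 was 4.55%, 1.68%, 2.49%, 5.28% and 7.29% for E8 against N2B27, and from day 4 to 8 it was 1.58%, 2.62% and 3.80% for mTeSR. At day 8 the 6 mesoderm genes summed to 220 and 291 CPM in N2B27, 35.6 and 38.1 in E8 and 147 and 193 in mTeSR. Of the 3 tested, all 3 were lower in E8 than in N2B27, and MSGN1 was at 0 counts throughout. The 4 endoderm genes summed to 138 and 153 CPM in N2B27, 13.0 and 17.4 in E8 and 76.4 and 78.5 in mTeSR, with all 4 called lower in E8 than in N2B27. The part of these cells in the differences of ZIC1 and ZIC2 between media was not tested.

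ZIC factors are best known beside neural genes, so markers of the neural plate and its border were read as well. The 9 neural plate genes summed to 176 and 186 CPM in N2B27, 282 and 347 in E8 and 166 and 214 in mTeSR at day 8. Most of the sum was NES, at 172 ± 7.25, 304 ± 46.1 and 178 ± 32.7 CPM (SD, n = 2), and the defining marker SOX1 had at most 3 counts in any library. Of the 5 tested, 1 was higher and 1 lower in E8 than in N2B27 at day 4, 1 was higher at day 6, and none was called at days 2, 3 and 8. In mTeSR 1 was higher and 1 lower at day 4, none was called at day 6 and 1 was higher at day 8. Of 5 tested genes of the neural plate border and crest, 3 were lower and 1 was higher in E8 than in N2B27 at day 8, with MSX1 at 21.4 ± 3.41 CPM in N2B27 and 4.65 ± 0.580 in E8, and FOXD3 at 23.1 ± 5.61 and 50.01 ± 6.87. In mTeSR 2 of the 5 were lower than in N2B27 at day 8 and none was higher, and at the earlier days none was called in either medium. The share of all genes called at day 8 was 7.29% for E8 and 3.80% for mTeSR. Of the remaining lists, 3 of 3 tested trophectoderm genes and 1 of 2 tested amnion genes were lower in E8 than in N2B27 at day 8, and in mTeSR 3 of 3 trophectoderm genes and 0 of 2 amnion genes were.

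Across the 38 libraries the log2 levels of ZIC2 and ZIC5 correlated at r = 0.943, and at 0.773 over the 32 differentiated libraries. ZIC1 correlated with ZIC2 at -0.107 (-0.364 without naive libraries) and with ZIC5 at -0.292 (-0.632). These are descriptions over libraries that share media, days and replicate preparations. Of 11436 genes with a mean of at least 5 CPM, those closest to ZIC2 over the 38 libraries were COL1A2 (r = 0.985), SLC2A1 (0.970) and GSR (0.966). Among the closest to ZIC5 were ITGB1 (0.943) and SLC2A1 (0.943), and closest to ZIC1 were PGM2 (0.854), ZNF486 (0.851) and M6PR (0.818).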

How the data were processed

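RNA was measured by 3′ tag sequencing (QuantSeq) in 38 libraries. The authors deposited raw gene counts, made with the nf-core/rnaseq workflow on hg38. Per the labels, the tools included FastQC 0.11.9, STAR 2.7.10a and Salmon 1.9.0. The annotation release and strand setting are not given in the sources used here.

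Tests were run with edgeR 4.0.16 under R 4.3.3. The function filterByExpr kept 16674 genes holding 99.6% of counts, TMM scaled the libraries, and quasi-likelihood F-tests were adjusted by Benjamini-Hochberg over all genes tested. A fit of 16 levels (naive n = 6, N2B27 day 4 n = 4, others n = 2) gave the comparisons with naive cells, and one of 19 groups the others. Standard errors are the log2 fold change over the square root of F. Scripts were tested on simulated data. Alternatives were RLE factors, plain totals, other filters, DESeq2 1.42.0, other sets of libraries, a replicate block, and leaving out each library.

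All members are named. Counts of list genes that were higher or lower are counts of called genes. List genes were named if among the 4 of highest mean CPM in their list, neighbours if among the 2 nearest tested genes on a side, and 3 likeness genes per member by Pearson r of log2 CPM (prior count 2), of which 1 is not reported here. SPIC, SUFU, SHH, DHH, IHH, MSGN1, SOX1 and FGF5 were chosen after their values were seen. The members and lists were chosen with earlier results of these data known. Library totals limit precision: with 3 counts or fewer a level is at the floor, and floors cover counting error only.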

Additional observations from a re-analysis of the deposited data

Results flagged for a closer look

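The difference between E8 and N2B27 changed over days 2 to 8 for ZIC5 in the interaction test (edgeR, adjusted p 0.0361), with the E8 level below N2B27 at day 4 and above it at day 8. The result was lost with DESeq2 (adjusted p 0.171), with only the libraries compared (0.0568) and without any of 11 single libraries. Among the 6 naive libraries, ZIC5 had a single count (0.180 CPM) in Geltrex replicate 2 of Ex1 and 0 counts in the other 5. With 5 libraries at 0 any count in the remaining one meets Dixon's criterion, so this rests on 1 count and says nothing further. In all, 8 groups were examined for an outlying library.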

How the results depend on the processing

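Calls of ZIC1 (7), ZIC2 (15) and ZIC5 (15) against naive cells kept the same number with RLE factors, plain totals, either filter and DESeq2, and ZIC5 had 10 of 10 tested with only the libraries compared. In that fit it did not pass the filter at earlier days in E8 and mTeSR, so its first tested and called day was 6 in both. Naive cells were at the floor and ZIC5 could pass only where the other group was high, so that fit adds no support. Called steps between days were less stable. ZIC1 had 1 (main 2) with DESeq2 and 1 with only the libraries compared. ZIC2 (main 4) had 2 without a filter, 2 with more than 10 counts in 2 libraries required and 1 with only the libraries compared. ZIC5 (main 3) had 1 without a filter and 0 with DESeq2. Leaving out 1 library gave 1 to 2 for ZIC1, 1 to 3 for ZIC2 and 0 to 3 for ZIC5. Between media ZIC5 (main 0) had 1 call with plain totals, 1 with only the libraries compared, and 0 to 1 without single libraries (1 without either N2B27 library of day 3). The interaction test of ZIC5 for E8 and N2B27 gave adjusted p 0.171 with DESeq2, 0.0568 with only the libraries compared and 0.0260 to 0.178 without single libraries. For ZIC1 it gave 0.0426 to 0.185 without single libraries, passing without E8 day 8 replicate 2. For ZIC2 in mTeSR and N2B27 it gave 0.0168 with only the libraries compared and 0.0440 to 0.474 without single libraries, passing without E8 day 3 replicate 2. ZIC1 in FAX against naive (-0.20) changed sign to 0.37 with naive cells of the same experiment and 0.31 with experiment as covariate. Without single libraries, uncalled differences that changed sign spanned -0.34 to 0.017 for ZIC1 in E8 at day 4 against naive, -0.36 to 0.059 for ZIC1 in XAV against N2B27, -0.91 to 0.037 for ZIC5 in FAX against N2B27 (0.02 without N2B27 replicate 2) and -0.38 to 0.56 for ZIC5 in FAX against XAV (-0.13 without XAV replicate 1). The cause was not tested.

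Replicate numbers did not pair the libraries. Over 171 pairs of groups the correlation of replicate differences ran from -0.350 to 0.258, with 7 over 0.1. With a replicate block the called comparisons stayed at 7, 2 and 5 for ZIC1, 15, 4 and 6 for ZIC2 and 15, 3 and 0 for ZIC5, against naive, between days and between media. Crossing the numbers of N2B27 days 2 and 3, chosen after seeing the data, left ZIC2 with 4 called steps.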
